A study of Homo sapiens with 6 samples.

Results

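Replication dependent histone genes supply the core histones H2A, H2B, H3 and H4 and the linker histone H1 that package newly replicated DNA. Their probe sets were compared between EJ/T24 bladder cancer cells transfected with FOXA1 and control cells. Members were taken by gene name alone. A member is a probe set (a group of short oligonucleotides that reads one transcript) on the HG-U133 Plus 2.0 array whose annotation gives exactly 1 gene symbol, where that symbol belongs to the H1-1 to H1-6, H2AC, H2BC, H3C or H4C series. This gave 48 probe sets of 42 genes, out of 41091 probe sets of 19775 genes with 1 symbol. The 48 comprised 7 probe sets for H1, 10 for H2A, 14 for H2B, 8 for H3 and 9 for H4, and 6 genes had a pair of probe sets. Histone variants whose symbols lie outside these series, such as H2AX, are not members.

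EJ/T24 is an established human line from an invasive bladder tumor, grown in medium with 10% fetal calf serum. Both groups held 3 arrays. The first was transfected with a FOXA1 construct and the control with empty plasmid, which the labels call pUC19 and the methods describe as an empty vector, the FOXA1 construct being in pcDNA3. All dishes were 90 mm wide, were 70% confluent and received 24 µg of DNA with a Lipofectamine reagent. Each group was therefore a transient transfection of 1 cell line, which the methods describe as done in triplicate, without saying whether each array had its own culture. Each p-value here thus sets a difference against array to array spread, which may be technical. FOXA1 is a forkhead transcription factor of luminal epithelial cells. Its own signal was 38.9, 34.8 and 31.9 in the FOXA1 transfected arrays and 21.8, 24.4 and 21.0 in the controls (log2 difference 0.65, SE 0.23, limma adjusted p = 0.307). Every FOXA1 transfected array was above every control array, although the second FOXA1 probe set, which was dim, overlapped between the groups at a log2 difference of -0.54. Which of the probe sets reads the transfected construct is not known here.

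Histone genes of this class sit in clusters, have no introns in their short form, and are transcribed in S phase under the coactivator NPAT. Their short messages end in a stem-loop bound by SLBP in place of a poly(A) tail, and many can also be made as longer polyadenylated messages. Transcripts on these arrays were primed with oligo-d(T), and the tails of the messages read were not measured. Members lie on chromosome 6 in a first block (29 probe sets of 25 genes) and a second block (16 probe sets of 15 genes), and on chromosome 1 (3 probe sets of 2 genes, H2AC25 and H2BC21).

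The 250 bases before the annotated start (RefSeq, GRCh38.p14) are shown for 4 members that the results below turn on. H2BC12 had the smallest p of all members. H2BC5 and H4C8 each had a pair of probe sets without overlap of the groups, as did H3C6, which is not shown. The H2BC4 stretch is shared with H2AC6, which is transcribed the other way from the same interval. Sequences run 5′ to 3′ on the strand of the gene, and capitals mark the CCAAT box, the TATA box letters TATAAA and the octamer ATTTGCAT, on either strand, where neighbours can run into each other.
H2BC12 (chr6:27146859-27147108, minus strand): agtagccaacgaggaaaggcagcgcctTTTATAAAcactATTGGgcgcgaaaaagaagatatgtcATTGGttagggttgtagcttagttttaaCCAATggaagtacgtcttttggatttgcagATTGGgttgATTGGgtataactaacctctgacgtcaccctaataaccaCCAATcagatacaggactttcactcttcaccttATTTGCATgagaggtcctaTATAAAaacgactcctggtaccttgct
H2BC5 (chr6:26157871-26158120, plus strand): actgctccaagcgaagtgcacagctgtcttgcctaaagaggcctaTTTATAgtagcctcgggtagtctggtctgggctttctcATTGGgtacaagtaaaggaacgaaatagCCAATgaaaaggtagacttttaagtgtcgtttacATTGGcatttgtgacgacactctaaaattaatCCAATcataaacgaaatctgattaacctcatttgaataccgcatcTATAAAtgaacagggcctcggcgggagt
H2BC4 (chr6:26123927-26124176, minus strand): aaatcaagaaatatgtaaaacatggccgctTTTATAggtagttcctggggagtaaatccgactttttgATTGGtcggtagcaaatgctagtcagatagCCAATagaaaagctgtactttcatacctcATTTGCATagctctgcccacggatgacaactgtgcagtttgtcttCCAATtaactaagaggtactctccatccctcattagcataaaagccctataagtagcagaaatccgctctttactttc
H4C8 (chr6:26285535-26285784, minus strand): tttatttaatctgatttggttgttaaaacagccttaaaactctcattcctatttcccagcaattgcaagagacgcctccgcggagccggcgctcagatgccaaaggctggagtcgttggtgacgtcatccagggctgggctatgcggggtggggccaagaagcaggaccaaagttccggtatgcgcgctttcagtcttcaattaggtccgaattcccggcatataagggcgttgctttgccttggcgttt

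These letters were spread unevenly over the histone types. A window was found for 40 of the 42 member genes. CCAAT, the letters bound by NF-Y, stood in 35 of the 40 windows (87.5%), against 32.0% of 35116 RefSeq windows of the same length. Every H1, H2A, H2B and H3 window held it, but only 2 of 7 H4 windows did, and the H4C8 stretch above shows none. TATAAA, a core of the TATA box, stood in 27 of 40 (67.5%, all windows 10.7%). The octamer ATTTGCAT, read by POU2F1, stood in 6 of 8 H2A and 10 of 13 H2B windows and in none of the H1, H3 and H4 windows (all windows 1.63%). H2BC12 holds it close to the start in the stretch above, while H2BC5 does not hold it. A forkhead sequence, TGTTTAC or TATTTAC, stood in 2 of 40 windows (5%, all windows 5.27%). Both were the overlapping windows of H2AC17 and H2BC17. An E2F sequence, TTTCCCGC or TTTGGCGC, stood in 1 of 40 windows, that of H4C7 (all windows 1.93%). A match describes the letters and is no evidence of binding.

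Of the 48 member probe sets 34 had a higher mean log2 signal after FOXA1 transfection and 14 a lower one. All differences below are FOXA1 transfected minus control, as the labels name the arrays. The study's own table of changed genes gives H2BC12 and H2AC15, which it chose on these same arrays, the opposite direction. It does the same for a further histone probe set that carries several symbols here. The sign of every difference, and every count of FOXA1 above or below control, therefore rests on the labels. Whether the labels or that table hold the right direction was not tested. The median log2 difference over members was 0.32, against 0.08 over all 54613 probe sets tested, of which 58.2% were above 0. In bulk RNA a larger share of cells with a message and more of it per cell cannot be told apart. No member passed limma with Benjamini-Hochberg adjustment at 0.05 in either direction, where 0.0385% of all probe sets passed as higher and 0.0201% as lower. The smallest adjusted p was 0.0932, at H2BC12. At an unadjusted p under 0.05 there were 13 members higher and 0 lower, against 7.06% and 4.27% of all probe sets. At 15 members (31.25%) all 3 FOXA1 transfected arrays exceeded all 3 controls, where 10.5% of all probe sets did so. The reverse held for 1 member, H3C3, against 5.86% of all probe sets. For 3 arrays against 3 the exact two-sided permutation test cannot go below p = 0.1, which is its value for each probe set without overlap.

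**Figure D1:**
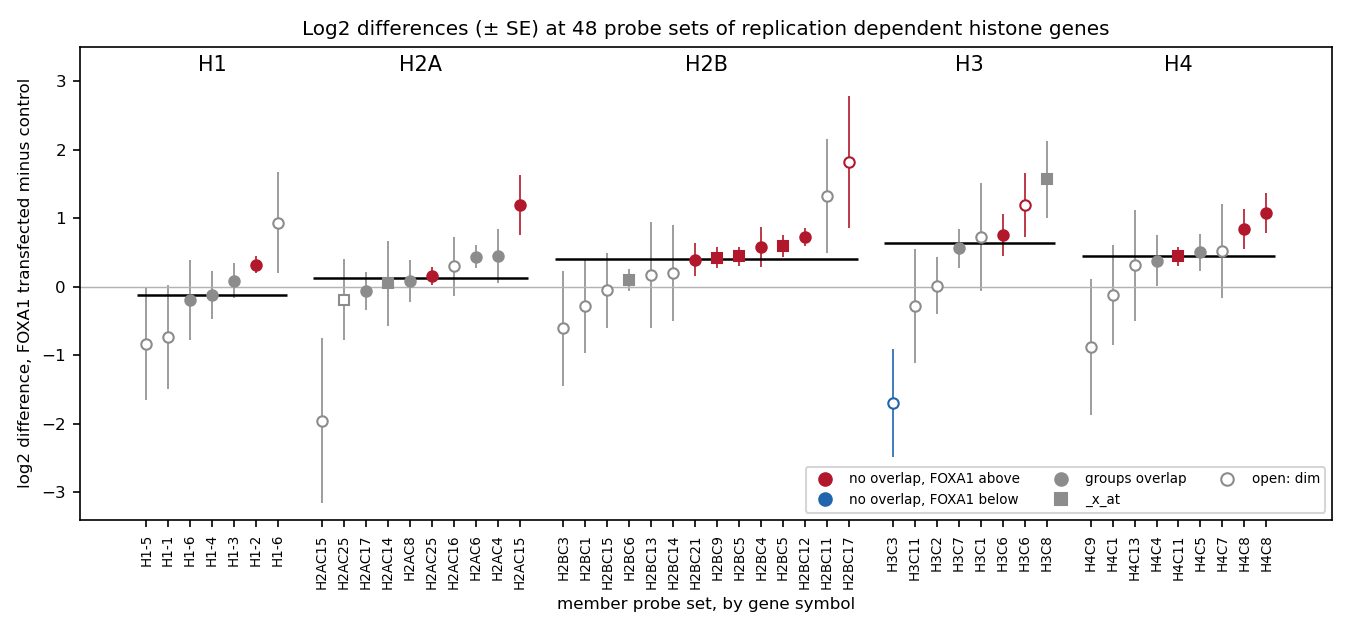
Log2 difference (y axis, FOXA1 transfected minus control, bars SE) at each of the 48 member probe sets (x axis), grouped by histone type, with squares for _x_at probe sets, open symbols for dim ones and a line at the median of each type. Red marks the 15 members without overlap and with FOXA1 above (31.25%, all probe sets 10.5%), of which 7 are among the 14 of H2B. The single blue symbol, with FOXA1 below, is H3C3.

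Differences were also counted by signal. The table has no detection calls that were used here, so a probe set was called dim where its mean over all 6 arrays was at or under 14.5, the median of all probe sets. At the 26 brighter members 23 differences were above 0 (all brighter probe sets 55.3%), with a median of 0.44, where the median of all brighter probe sets was 0.03. Groups did not overlap at 13 of the 26 (50%, all brighter probe sets 12.9%), each time with FOXA1 above, and at 0 with FOXA1 below (8.95%). With median centring 5 of the 26 lacked overlap with FOXA1 above (all brighter probe sets 3.54%), and with quantile normalization 9 (10.8%). The medians of the 26 were then 0.26 and 0.37. The mean behind this division includes both groups, and H2AC15, H2AC4 and H4C4 passed it only through the FOXA1 transfected arrays. At the 23 members whose means in both groups were above the limit, a set formed after the values were seen, 20 were above 0, the median was 0.44 and 12 lacked overlap with FOXA1 above (52.2%, all such probe sets 12.3%). The 22 dim members divided evenly, 11 above 0 and 11 below, with a median of -0.02 where all dim probe sets had 0.21. Of the dim members 4 had a mean signal under 3.5, the 20th percentile of all signals, which is near the floor of the arrays.

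By histone type the median differences were -0.12 for H1, 0.12 for H2A, 0.41 for H2B, 0.64 for H3 and 0.44 for H4. These medians were not tested against each other, and they moved when 1 array was left out. That of H3 was 0.29 without control replicate 2 and 0.36 without FOXA1 replicate 3, under the 0.37 of H4 in both cases. That of H1 ran from -0.25 to 0.08, being above 0 only without FOXA1 replicate 2. That of H2A ran from 0.08 to 0.23 and that of H2B from 0.28 to 0.55. Median centring moves all probe sets by the same amount, which put the H2A median at -0.06 where that of all probe sets was -0.10. Medians of H2B, H3 and H4 stayed above 0 at 0.22, 0.46 and 0.26 after centring, and that of H1 was -0.30.

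Linker histone H1 compacts chromatin between nucleosomes. Its probe sets divided into 3 above 0 and 4 below. H1-2, the brightest of them, read 117.9, 117.9 and 122.4 after FOXA1 transfection and 103.1, 103.1 and 81.9 in controls. The groups did not overlap, and the log2 difference was 0.32 (SE 0.13, limma adjusted p = 0.37). The rest of the H1 probe sets overlapped. H1-3 and H1-4, both above the dim limit, had log2 differences of 0.08 (SE 0.25) and -0.12 (SE 0.35). H1-1 and H1-5 had log2 differences of -0.73 (SE 0.76) and -0.84 (SE 0.82) at signals between 1.4 and 9.8, which is near the floor of the arrays. The probe sets of H1-6, a testis form, disagreed with each other at -0.20 and 0.93, both with overlap.

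Histone H2A pairs with H2B on the outside of the nucleosome. Of its 10 probe sets 7 were above 0. H2AC6, the brightest, read 141.5, 133.3 and 130.9 after FOXA1 transfection and 135.9, 86.5 and 84.5 in controls (log2 difference 0.44, SE 0.17, limma adjusted p = 0.364). Control replicate 1 lay inside the range of the FOXA1 transfected arrays, so the groups overlapped. H2AC15 was read by a pair of probe sets that disagreed. The brighter read 33.0, 19.7 and 17.5 against 10.4, 14.9 and 6.1, without overlap (log2 difference 1.20, SE 0.44, limma adjusted p = 0.328). The second read 0.5, 0.2 and 5.6 against 8.1, 2.9 and 1.4, with a log2 difference of -1.96 (SE 1.20). Of these values only 5.6 and 8.1 were above 3.5, the 20th percentile of all signals. The single other H2A probe set without overlap, at H2AC25 and named after its values were seen, had a log2 difference of 0.16 (SE 0.13).

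Of the 14 H2B probe sets 7 lacked overlap with FOXA1 above (50%, all probe sets 10.5%), out of 15 such members. H2BC12 (chr6:27138293-27146858, minus strand) was the brightest H2B member on the array. It read 634.1, 508.3 and 619.8 after FOXA1 transfection, against 410.3, 288.1 and 373.7 in controls. The lowest FOXA1 transfected array stood above the highest control, and the ratio of means was 1.64 (log2 difference 0.73, SE 0.13, limma adjusted p = 0.0932). The study picked this gene on these arrays, so its place at the top is not independent evidence. The limma adjusted p was 0.0377 with dim probe sets left out and 0.0450 with the brightest probe set of each gene. Those were past the threshold, as were 0.0162 with a block on replicate number and 0.0382 with dim and _x_at probe sets both left out. The threshold was missed at 0.0959 with _x_at probe sets left out, 0.1082 with quantile normalization and 0.261 with a floor at the 20th percentile. It was also missed at 0.3853 with median centring and 0.5476 without the intensity trend. The adjusted p was 0.3206 without control replicate 2, and between 0.130 and 0.2207 without any other array.

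H2BC5 was read by a pair of _x_at probe sets. The first read 133.7, 128.7 and 138.4 against 108.7, 69.6 and 92.0 (log2 difference 0.59, SE 0.16, limma adjusted p = 0.198), and the second 148.4, 111.7 and 128.9 against 107.2, 89.7 and 87.9 (0.45, SE 0.14, limma adjusted p = 0.263). Neither overlapped, and the lowest control value was replicate 2 in the first and replicate 3 in the second. The probe sets of H2BC4, H2BC9, H2BC21 and H2BC17, named after their values were seen, also did not overlap. H2BC4 read 23.4, 24.8 and 35.4 against 17.2, 15.5 and 23.1, so the highest control was close to the lowest FOXA1 transfected array (log2 difference 0.58, SE 0.30). H2BC9 and H2BC21 had log2 differences of 0.42 (SE 0.15) and 0.39 (SE 0.24). H2BC17 was dim, and control replicate 2 read 0.5, so that its log2 difference of 1.82 carried an SE of 0.96. H2BC6, also read by an _x_at probe set, had a log2 difference of 0.10 (SE 0.16) with overlap. H2BC3 and H2BC13, both near the floor, had log2 differences of -0.61 (SE 0.84) and 0.17 (SE 0.78).

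**Figure D2:**
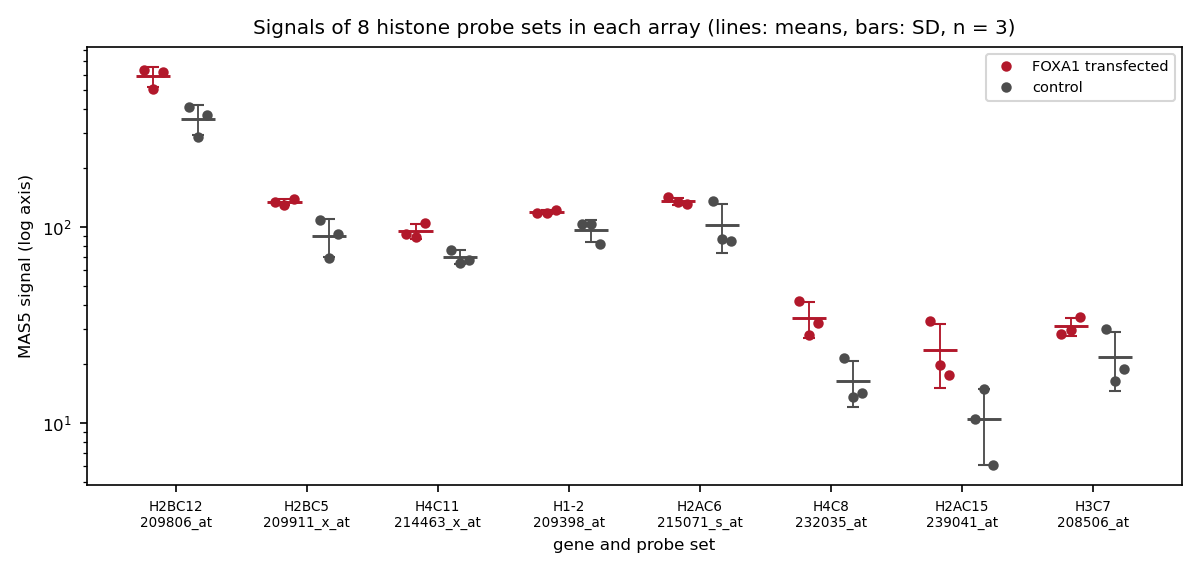
MAS5 signal (y axis, log scale) in each array for 8 probe sets (x axis, gene and probe set), FOXA1 transfected in red and control in grey, with lines at the means and bars of 1 SD (n = 3). H2BC12 runs from 508.3 to 634.1 in FOXA1 transfected arrays and from 288.1 to 410.3 in controls, while H2AC6 and H3C7 overlap.

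Histone H3 carries the tail residues that most chromatin marks sit on. Its probe sets were 6 above 0 and 2 below, and only 3 of 8 were above the dim limit. H3C7, brightest by mean log2 signal, read 28.3, 29.8 and 34.8 against 29.9, 16.4 and 18.7, with overlap through control replicate 1 (log2 difference 0.56, SE 0.29, limma adjusted p = 0.5). H3C8 and H3C6 were named after their values were seen. H3C8 had the largest difference of the brighter members, 1.57 (SE 0.56, limma adjusted p = 0.317), from 53.7, 49.7 and 25.7 against 28.4, 4.9 and 19.0. FOXA1 replicate 3 lay below control replicate 1, and control replicate 2 was far below the rest. The pair of H3C6 probe sets, both without overlap, read 20.9, 25.9 and 27.1 against 16.7, 12.4 and 14.8 (log2 difference 0.75, SE 0.30) and 19.7, 16.2 and 15.2 against 9.9, 4.5 and 9.1 (1.19, SE 0.46). H3C3 was the only member with all FOXA1 transfected arrays below all controls, at 1.4, 1.7 and 1.8 against 8.5, 2.1 and 8.2 (log2 difference -1.70, SE 0.80, limma adjusted p = 0.457). Its FOXA1 transfected values and control replicate 2 were under 3.5, near the floor of the arrays.

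Histone H4 forms a tetramer with H3. Of its 9 probe sets 7 were above 0. H4C8 (chr6:26285126-26285534, minus strand) was read by a pair of probe sets of like signal. The first read 41.9, 27.9 and 32.4 against 21.3, 13.5 and 14.1 (log2 difference 1.07, SE 0.30, limma adjusted p = 0.211), and the second 42.6, 28.2 and 34.1 against 21.1, 14.0 and 24.2 (0.84, SE 0.29, limma adjusted p = 0.304). In both the groups stood apart, FOXA1 replicate 1 was the highest array and control replicate 2 the lowest. H4C11 read 91.5, 89.1 and 105.1 against 76.5, 65.7 and 68.1 without overlap (log2 difference 0.44, SE 0.13, limma adjusted p = 0.257). H4C9, a dim probe set, read 12.3, 0.8 and 17.4 against 8.0, 11.8 and 11.3. Its log2 difference of -0.88 (SE 0.99) rested on FOXA1 replicate 2, and was 0.52 without that array.

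Histone genes are close copies of each other, and probe sets whose names end in _x_at hold oligonucleotides that can read more than 1 transcript. The 8 _x_at members had a median log2 difference of 0.43, with 7 above 0 (all _x_at probe sets 62.7%), 4 without overlap with FOXA1 above (50%, against 15.1%) and 0 with FOXA1 below (5.28%). The other 40 members had a median of 0.31, with 27 above 0, 11 without overlap with FOXA1 above (27.5%, all probe sets of this kind 10.2%) and 1, H3C3, with FOXA1 below. H2BC12, H4C8 and H1-2 belong to this second set, and H2BC5 and H4C11 to the first. A further 20 probe sets carry several histone symbols, are not members and name no gene. Of these 17 were above 0 (median 0.41) and 10 did not overlap, all with FOXA1 above (all probe sets 10.5%). These 10 were among the 15 of them that were above the dim limit (all brighter probe sets 12.9%). The single one that passed the threshold carries a pair of H2A symbols and read 282.8, 260.7 and 242.4 against 159.2, 126.8 and 137.6 (log2 difference 0.90, SE 0.11, limma adjusted p = 0.0257). That call was lost without any 1 of 4 arrays, with adjusted p of 0.1266 and 0.1661 without FOXA1 replicates 1 and 2 and of 0.1263 and 0.0926 without control replicates 2 and 3. It was also lost with median centring at 0.3304, with the floor at 0.1106 and without the intensity trend at 0.3831. The brightest of the 20, annotated to 14 H4 symbols, read 6109.1, 6179.0 and 5531.8 against 5544.0, 5569.4 and 5467.9, a log2 difference of 0.10 (SE 0.07) with overlap.

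Members whose RefSeq gene span is long stood out once values were seen, so the following is a description with no test. H2BC12, H2BC4, H2BC5, H2BC21 and H3C6 span 2224 to 13229 bases, while the other 37 member genes span 386 to 797 bases. All 7 probe sets of the long genes were without overlap, with FOXA1 above (all probe sets 10.5%) and a median log2 difference of 0.59. Of the 41 probe sets of short genes 8 were (19.5%), with a median of 0.17, and of their 20 brighter probe sets 7 were (35%, all brighter probe sets 12.9%), with a median of 0.40. The long genes were brighter as well, with 6 of 7 probe sets above the dim limit. Probe sets also differ in the sequence record that the annotation gives. Of 9 members tied to a GenBank record outside RefSeq 8 were without overlap with FOXA1 above, against 6 of 34 tied to a RefSeq transcript. Over all probe sets with 1 symbol these shares were 10.3% and 12.7%. Among members above the dim limit the counts were 7 of 7 and 5 of 17 (all such probe sets 12.2% and 15.3%). Of the 5 members with no record 1 was without overlap with FOXA1 above (all such probe sets 10.4%). Span and record overlap in H2BC12, H2BC4, H2BC5 and H3C6 and cannot be told apart in so few genes.

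**Figure D3:**
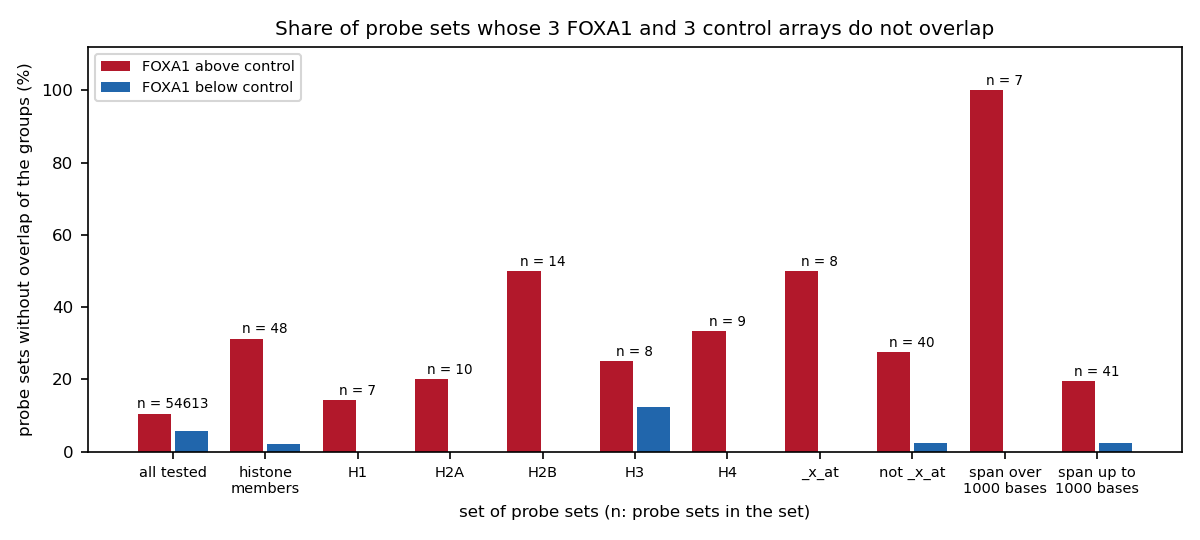
Percent of probe sets (y axis) whose 3 FOXA1 transfected and 3 control arrays do not overlap, FOXA1 above in red and below in blue, for all 54613 probe sets tested, the 48 members, each histone type, _x_at and other members, and members with a RefSeq gene span over 1000 bases or up to it (x axis, n above the bars). All 7 probe sets of long genes have FOXA1 above, against 10.5% of all probe sets.

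Values of genes that share a start region are given side by side, with no test of the difference. For 4 divergent H2A and H2B pairs both genes were measured. H2AC6 and H2BC4, whose common interval is printed above, had log2 differences of 0.44 and 0.58. H2AC14 and H2BC14 had 0.05 (SE 0.62) and 0.20 (SE 0.70). H2AC17 and H2BC17, the pair with the forkhead letters, had -0.07 (SE 0.28) and 1.82 (SE 0.96). H2BC15 had -0.06 (SE 0.54) beside the 1.20 and -1.96 of the H2AC15 probe sets. None of these 8 genes passed the threshold. The median log2 difference was 0.44 in the first block of chromosome 6, 0.19 in the second and 0.16 on chromosome 1, with 9 of 29, 4 of 16 and 2 of 3 probe sets without overlap and FOXA1 above (all probe sets 10.5%).

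Genes that make, process and load histones were read at the brightest probe set of each gene, where 59.2% of all genes were above 0, 12.5% lacked overlap with FOXA1 above and 7.25% with FOXA1 below, and the median was 0.07. None of their members passed the threshold, as 0.0607% of all genes did upwards and 0.0303% downwards. For transcription and processing of histone messages 23 of 24 listed genes were measured, 16 above 0 and 7 below, with a median log2 difference of 0.10. Groups did not overlap for 5 genes with FOXA1 above and 1 below. NCBP1, a cap binding protein, read 317.2, 315.7 and 261.1 against 223.2, 229.4 and 223.1 (log2 difference 0.40, SE 0.10, limma adjusted p = 0.179). SNRPF, a shared core protein of spliceosomal and U7 particles, and SLIRP, which is known as a mitochondrial RNA binding protein rather than a histone message factor, had log2 differences of 0.21 (SE 0.07) and 0.23 (SE 0.09), without overlap. Without SLIRP, left out after the values were seen, the list had 22 genes, 15 above 0 and 7 below, a median of 0.09 and 4 genes without overlap with FOXA1 above.

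Histone chaperones carry new histones to DNA. All 22 were measured, 14 above 0 and 8 below (median 0.09), and 6 lacked overlap with FOXA1 above and 1 with FOXA1 below. IPO4, which imports H3 and H4, read 202.8, 210.5 and 207.8 against 163.3, 142.6 and 149.9 (log2 difference 0.45, SE 0.10, limma adjusted p = 0.136). SSRP1, a subunit of FACT, and ASF1B, which carries H3 and H4, had log2 differences of 0.33 (SE 0.08) and 0.46 (SE 0.13), both without overlap. Of 13 genes listed as replication independent variants 9 were measured. These divided into 4 above 0 and 5 below (median -0.01), and 2 lacked overlap in each direction. H2AJ read 600.3, 582.4 and 553.1 against 704.9, 726.3 and 684.7, every FOXA1 transfected array being below every control (log2 difference -0.29, SE 0.08, limma adjusted p = 0.197). H2AX, the variant phosphorylated at DNA breaks, had 0.32 (SE 0.12) with overlap, and H2AZ1, which marks promoters, 0.18 (SE 0.08) without.

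The S phase and DNA replication list had 43 of 44 genes measured, 31 above 0 and 12 below, with a median log2 difference of 0.10. Groups did not overlap for 6 genes with FOXA1 above (14.0%) and for 2 with FOXA1 below. MCM5 and MCM3, subunits of the replicative helicase, had log2 differences of 0.36 (SE 0.09) and 0.24 (SE 0.07), and PRIM2, a primase subunit, 0.31 (SE 0.10), each without overlap and with limma adjusted p of 0.181, 0.246 and 0.263. With median centring the medians of the processing, chaperone and S phase lists were -0.08, -0.09 and -0.08 where that of all genes was -0.11, and with quantile normalization they were 0.09, 0.10 and 0.10 where that of all genes was 0.02. Centring moves every gene by the same amount, so it cannot change where a median stands relative to that of all genes. The 3 medians stood above that of all genes in the main analysis and with quantile normalization. The median of the replication independent variants stood below it in both, at -0.01 against 0.07 and at -0.03 against 0.02.

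The arrays themselves were uneven. Taken as the deviation of each probe set from its mean over the 6 arrays, the median of the 26 brighter members was 0.24, 0.15 and 0.23 log2 units in FOXA1 replicates 1, 2 and 3, and -0.09, -0.41 and -0.22 in control replicates 1, 2 and 3. Each FOXA1 transfected array was above each control, with control replicate 2 the lowest. That array gave the lowest value of 14 of the 26, and it also had the lowest median signal of all probe sets, 12.3 against 14.2 to 17.5 elsewhere. Without it the median of all 48 members was 0.19, against 0.03 over all probe sets, and 14 of the 26 brighter members were without overlap (all brighter probe sets 16.1%). RNA quality also differed at one of its usual measures. For ACTB the 3′ probe set gave 2.37 ± 0.228 (SD, n = 3) times the signal of the 5′ probe set after FOXA1 transfection and 1.73 ± 0.188 times in controls (exact two-sided permutation p = 0.1, the smallest possible). The like ratio for GAPDH was 0.920 ± 0.0217 and 0.899 ± 0.0093 (exact permutation p = 0.3). The part of these array differences in the histone values was not tested.

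**Figure D4:**
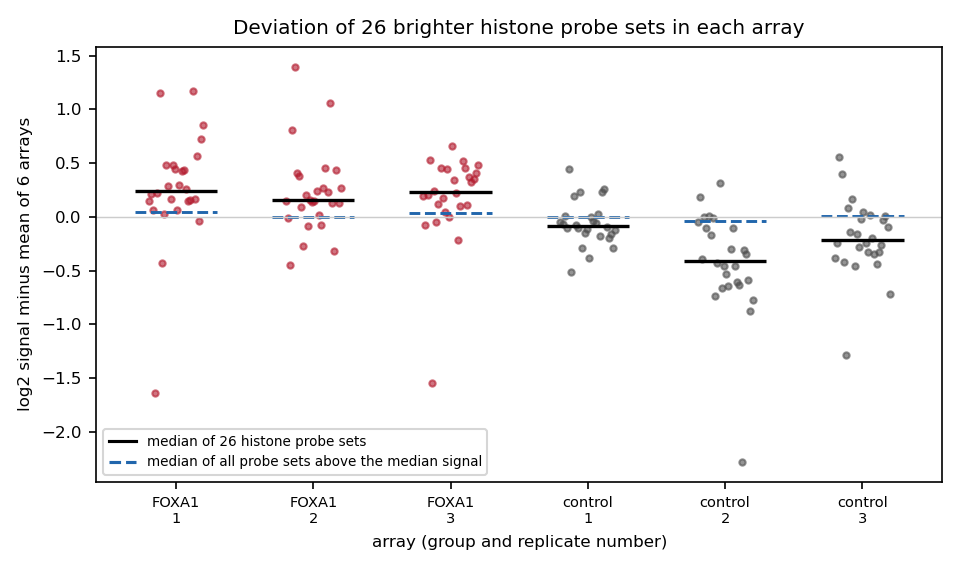
Log2 signal minus the mean of the 6 arrays (y axis) for each of the 26 brighter member probe sets (points) in each array (x axis), with the member median as a solid line and the median of all probe sets above the median signal as a dashed line. Member medians lie at 0.15 to 0.24 in the FOXA1 transfected arrays and at -0.41 to -0.09 in the controls.

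Markers of the cells were checked in the same table. Summed signals of 6 epithelial markers ranged from 2431.6 to 2613.4 after FOXA1 transfection and from 2142.0 to 2468.4 in controls, and KRT18 alone read between 2080.4 and 2543.9, while 2 of the 6 had a mean under 3.5. The 6 urothelial luminal markers summed to 72.7 to 103.3 and 58.4 to 81.4 respectively, and 2 of them also had a mean under 3.5. Markers of other cell types, 10 of 11 of them measured, summed to 161.5 to 236.3 and 159.8 to 188.3, where 8 of the 10 were at or under the dim limit. All 3 sums overlapped between the groups, but a sum is carried by its brightest markers. Of all genes 59.2% were above 0 by log2 difference and 12.5% lacked overlap with FOXA1 above. Of the 6 luminal markers 5 were above 0 (median 0.50). UPK1B, a uroplakin, was at 0.80 (SE 0.35) without overlap, and GATA3, a luminal transcription factor, at 0.95 (SE 0.49) with overlap. PPARG, the brightest of the 6, was at -0.15 (SE 0.22) with overlap. UPK2, at 0.90 with overlap, rested on FOXA1 replicate 2, which read 12.1 where replicates 1 and 3 read 1.3 and 1.2. With quantile normalization 3 luminal markers were above 0 and 3 below (median 0.33, all genes 0.02). With median centring 4 were above 0 and 2 below (median 0.32, all genes -0.11). Of the 6 epithelial markers 4 were above 0 (median 0.12), and KRT7, a simple epithelial keratin, did not overlap (0.37, SE 0.27). Of the 10 markers of other cell types 6 were above 0 (median 0.08), and PECAM1, an endothelial adhesion molecule, did not overlap (0.47, SE 0.20). None of these markers passed the threshold.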

How the data were processed

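Whole genome expression was measured on 6 HG-U133 Plus 2.0 arrays, 3 in each group, and the sample labels gave the groups and replicate numbers. The authors deposited 1 signal per probe set and array, a linear intensity from Affymetrix MAS5 software. Their methods then describe RMA log2 values and SAM, which these signals do not include. All sample columns were mapped, and no detection calls were used. Precision is limited by the number of arrays.

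Of 54675 probe sets 62 array controls were left out. The 25 values listed at 0 were set to 0.1, the lowest value above 0, and all signals were log2 transformed. For the remaining 54613 a two-sided moderated test came from limma 3.58.1 (R 4.3.3), through lmFit and eBayes with trend, and p was adjusted by Benjamini-Hochberg at a threshold of 0.05. SAM was not run, since it draws regroupings of the arrays. The test was also run on simulated data with independent noise at each probe set, which hold no shifts of whole arrays. Gene symbols came from the platform annotation, in which 41091 probe sets had 1 symbol, 1801 several and 11721 none. All 42 member genes matched RefSeq by Entrez number under the same symbol.

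The members, gene lists and tests were chosen with earlier results of these data known. Named members were those with the 6 smallest p in each direction, the brightest of each type by mean log2 signal, H2BC12 and H2AC15 from the study's table, H4C8, H2BC5, H4C11 and H2BC13, each with all its probe sets, and up to 3 genes with the smallest p from each list. Alternatives were limma without the trend, quantile normalization, median centring, a floor at the 20th percentile (3.5), leaving out dim or _x_at probe sets, the brightest probe set of each gene, a block on replicate number, and removal of each array. Leaving out dim and _x_at probe sets together, the signal limit in both groups, and the processing list without SLIRP were chosen after seeing the data. Methylation arrays and tumor cohorts of the study were not analysed here.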

Additional observations from a re-analysis of the deposited data

How the results depend on the processing

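The number of members past the threshold was 0. It was 1, H2BC12, with dim probe sets left out, with the brightest probe set of each gene, with the replicate block (adjusted p = 0.0162, where 85 probe sets of all passed in place of 32) and with dim and _x_at probe sets left out together, and 0 under every other alternative, each array left out included. Same-numbered arrays correlated at 0.0439, 0.164 and 0.107 in their deviations from the group means, and differently numbered arrays at -0.133 to 0.0293. Correlations this weak do not settle whether the replicate numbers pair the arrays. The median over members stayed above 0 under all 15 alternatives, although leaving out the trend and adding the replicate block cannot change a log2 difference. The member median was 0.16 with quantile normalization and 0.13 with median centring, where that of all probe sets was -0.0046 and -0.10. With 1 array left out it was 0.19 to 0.41. The member median minus that of all probe sets was 0.23 in the main analysis and 0.16 with quantile normalization. Centring moves every probe set by the same amount and so must leave this gap at 0.23. The count of members with FOXA1 above all controls was 15, 10 with quantile normalization (all probe sets 8.19%), 6 with median centring (12.5%, all probe sets 4.79%), 9 of 19 members with dim and _x_at probe sets left out together (all such probe sets 12.2%) and 16 to 20 with 1 array left out, where the share over all probe sets was 13.8 to 20.5%. The count below all controls was 1, and 2 with quantile normalization or median centring, 0 with the floor, with dim probe sets left out or with both left out, and 1 to 2 with 1 array left out. The causes of these changes were not tested. Where probe sets were left out, fewer were tested and limma was fitted anew. The number called over all probe sets ran from 1 without the intensity trend to 174 with dim probe sets left out. Of the named members, H2BC13, whose signals all lie under 3.5, changed sign under 4 alternatives and H4C9 without FOXA1 replicate 2. No detection calls were used, so dim members are given as values only.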
